A study of Mus musculus with 3 samples.

Results

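Olfr73, Olfr160, Olfr1440, Olfr50 and Olfr109 are class II odorant receptor genes of the mouse, grouped here as receptors for which odorants or other ligands have been reported. The 5 genes were chosen by name from the authors' list of 1085 named promoter positions, and each has 1 position in it. The labels give RNA from olfactory epithelium of C57/Bl6 mice aged 6 to 8 weeks, with 5 animals pooled in each sample, and name no mutation or treatment for either group. Receptor cDNA primed with degenerate oligonucleotides was amplified from capped 5′ ends (RLM-RACE) and hybridised to tiling arrays. Stringent was 1 array with nested PCR product, and High Coverage was 2 arrays with product of PCR without nesting. In the file headers the High Coverage 1 input is named female and the High Coverage 2 input male, and sex and array cannot be told apart. The tissue is as labelled, and markers of its cell types were not analysed here.

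Odorant receptors are G protein-coupled receptors of olfactory sensory neurons, and a mature neuron as a rule transcribes a single receptor gene from a single allele. The coding sequence of such a gene usually lies in 1 exon, with non-coding exons upstream that are joined to it by splicing. The promoter can therefore lie kilobases before the coding start, and an array signal at the promoter can be followed by further signal where later exons lie. Olfr73, also called mOR-EG, responds to eugenol. Olfr160, known as M72, responds to acetophenone, and Olfr1440, or MOR215-1, responds to muscone, the odorant of musk. Olfr50 and Olfr109 are described by their data only.

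On mouse build mm9 the authors placed Olfr73 at 87875553 on the minus strand of chromosome 2. Olfr160 was placed at 37523942 on the minus strand of chromosome 9. Olfr1440 was placed at 12461776 on the plus strand of chromosome 19, Olfr50 at 36646088 on the plus strand of chromosome 2 and Olfr109 at 37598412 on the plus strand of chromosome 17. The RefSeq gene models of all 5 (build GRCm38.p6) had lengths divisible by 3, from 933 bases for Olfr160 to 948 for Olfr1440. Of 980 named receptors matched to that table, 78.2% had such a length. The models and the mapped positions are on different builds, and the distances between them were not computed. The first 30 bases of the models are shown for the 4 genes whose sequence RefSeq's table holds, with the first ATG in capitals. They lie at chr2:88035108-88035137 on the minus strand for Olfr73, chr9:37712251-37712280 on the minus strand for Olfr160, chr19:12394265-12394294 on the plus strand for Olfr1440 and chr17:37466208-37466237 on the plus strand for Olfr109.
Olfr73: ATGactctgtcagatggaaatcacagtggg
Olfr160: acaATGgctgcagagaatcaatctacagtg
Olfr1440: ATGcctggagggaggaatagcacagtcatc
Olfr109: ATGgagaactccacttcagtggatgagttt

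In 3 of these 4 genes the model opened with ATG, and in Olfr160 an ATG followed after 3 bases. RefSeq's windows of 300 bases hold 250 before and 50 after the annotated start. An ATG stood exactly at the annotated start in 72.9% of 842 windows of named receptor genes, against 4.06% of 32009 windows of all other genes. The share of A and T was 67.7% in the window of Olfr73, 54.0% in that of Olfr160, 61.0% in that of Olfr1440 and 64.3% in that of Olfr109. The medians were 65.0% over receptor windows and 47.0% over other genes. Of 4 motifs searched on both strands, TATAAA was found once each at Olfr73 and Olfr1440, while CCCNNGGG, TAATTA and TAATGA were found in none of the 4 windows. Over all receptor windows the shares with a match were 41.1% for TATAAA, 2.97% for CCCNNGGG, 18.6% for TAATTA and 28.7% for TAATGA. Over other genes they were 12.9%, 14.0%, 4.94% and 9.28%. The windows surround the annotated starts, and how they lie to the mapped positions was not determined here. Most receptor windows had an ATG at the annotated start and few other windows did, so the receptor and other windows differ in kind. Their A and T shares and motif shares are therefore not a comparison of promoters.

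All 5 receptors had signal at the named position on Stringent, and 4 of 5 had it on each High Coverage array. The MAT score used here combines neighbouring probes of 1 array after a model of probe brightness, and is high where labelled product bound. A score was taken as the highest within 100 bp of the position, and its percentile is the share of 2188086 scored probes of that array at or below it. Regions are those the authors called, and their scores are the authors' own. A called region reached into the window at 5 of 5 members on Stringent, against 61.7% of all 1085 positions. It did so at 4 of 5 members on High Coverage 1, against 36.4%, and at 4 of 5 on High Coverage 2, against 43.6%. All 3 arrays had a region at Olfr73, Olfr160, Olfr1440 and Olfr109, against 17.3% of all positions. Olfr73 left that count when each list was cut to its 3608 highest regions, since its High Coverage 2 region ranked 3889 of 6311. Olfr160 left it with windows of 0 and 50 bp. The members were chosen with earlier results of these data known, so these counts describe the 5 genes and are not a test of receptors with ligands. With 1 array against 2, no test between the groups was made, and members of 1 array are not replicates. The named positions were set by the authors in a study that used these arrays, so signal at a position is not independent evidence for it.

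Olfr73 had a score of like size on the 3 arrays, but not a like rank among the named positions. Scores of different arrays are not on 1 scale, so ranks within an array are compared. The score was 4.14 on Stringent, with 4.13 and 3.79 on High Coverage 1 and 2. These scores stood at the 94.3 percentile on Stringent and at the 97.5 and 95.9 percentiles on High Coverage 1 and 2, and the High Coverage arrays differed by 1.58 percentile points. Among all 1079 scored named positions the eugenol receptor was in the middle on Stringent, at the 49.95 percentile of positions, and at the 85.4 and 71.8 percentiles of positions on the High Coverage arrays.

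Olfr160, the M72 receptor, scored 12.97 on Stringent near the position, but 3.99 and 1.199 on High Coverage 1 and 2. The percentiles were 97.6, 97.4 and 87.6, so the score of High Coverage 1, although lower than that of Stringent, stood at a like rank on its own array. The peak lay further downstream than the window. The Stringent region ran from 40 bp upstream to 305 bp downstream with a score of 21.2. The High Coverage 1 region ran from 25 to 364 bp downstream with a score of 18.1, and that of High Coverage 2 ran from 85 to 343 bp with a score of 8.10. All 3 arrays peaked between 221 and 226 bp downstream. The region on High Coverage 2 was lost from the window when an overlap of 50 bp was asked for, which leaves 3 of 5 members there.

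Olfr1440, a muscone receptor, was high on every array. Its scores were 12.97 on Stringent and, for High Coverage 1 and 2, 6.74 and 10.04, at the 97.6, 98.5 and 98.7 percentiles. The High Coverage arrays differed by 0.202 percentile points. On all 3 arrays the authors' region was split at the same place, with a piece from 94 bp upstream to 30 bp downstream and the next piece starting at 31 bp. Only 6 scored probes lay in the 150 bp upstream, so the upstream side of this gene was thinly measured.

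Olfr50 differed most between the arrays. It scored 16.5 on Stringent, at the 99.0 percentile, but -0.770 on High Coverage 1, at the 36.0 percentile, and 2.03 on High Coverage 2, at the 92.3 percentile. No High Coverage region reached the position, and High Coverage 1 placed it at only the 2.60 percentile of all named positions. The High Coverage arrays differed by 56.3 percentile points, more than the 95th percentile of that difference over all positions, 34.3. The High Coverage level of Olfr50 is therefore not settled by these 2 arrays.

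Olfr109, a receptor on chromosome 17, was the highest of the 5 on both High Coverage arrays. It scored 6.06 on Stringent, with 13.7 and 14.1 on High Coverage 1 and 2, at the 95.2, 99.5 and 99.4 percentiles. The High Coverage arrays differed by 0.130 percentile points here. The region at the position ranked 2114 of 3608 on Stringent. It ranked 91 of 7266 in the High Coverage 1 list and 229 of 6311 in the High Coverage 2 list.

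**Figure D1:**
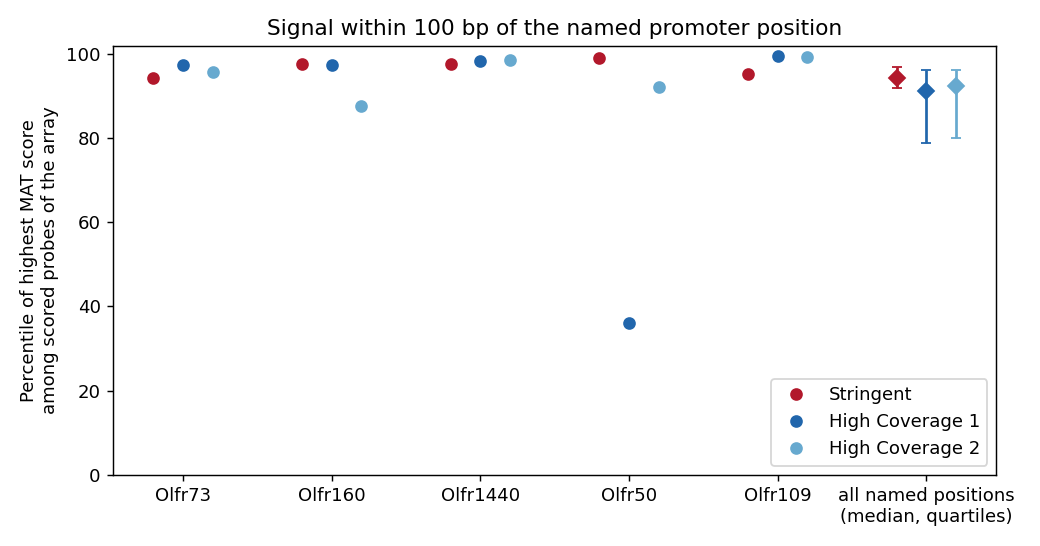
The vertical axis gives the highest MAT score within 100 bp of the named position, as a percentile among scored probes of the array, for the 5 receptors on each array (1 point an array). Diamonds with bars are the median and quartiles of all 1079 scored positions, and Olfr50 on High Coverage 1, at the 36.0 percentile, is the point that stands apart.

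Over the 5 members the median percentile was 97.6 on Stringent (94.3 to 99.0), against a median of 94.4 for all scored positions. It was 97.5 on High Coverage 1 (36.0 to 99.5), against 91.3, and 95.9 on High Coverage 2 (87.6 to 99.4), against 92.4. The order of the members differed between the groups. On Stringent it ran Olfr50, Olfr1440, Olfr160, Olfr109 and Olfr73, from high to low, and on both High Coverage arrays it ran Olfr109, Olfr1440, Olfr73, Olfr160 and Olfr50 except that Olfr160 was last on High Coverage 2. On Stringent, neighbours in the order differed by less than the median gap between the High Coverage arrays at a position, 4.33 percentile points. Olfr1440 and Olfr160 were level there, at 97.6 each. On High Coverage 1 the step down to Olfr50 alone exceeded that gap, and on High Coverage 2 the step from Olfr50 to Olfr160 alone did.

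Olfr160 and Olfr50 stood higher on Stringent than on the High Coverage mean, and the other 3 stood lower. Of all scored positions, 64.6% stood higher on Stringent. The difference, Stringent minus High Coverage, was 34.9 percentile points for Olfr50 and 5.13 for Olfr160. It was -1.01 for Olfr1440, -2.33 for Olfr73 and -4.24 for Olfr109, and the median over all positions was 4.03. For Olfr50 it rested on High Coverage 1, since the difference was 6.72 without that array and 63.0 without High Coverage 2. For Olfr160 it was 10.02 without High Coverage 1 and 0.243 without High Coverage 2, and with windows of 50, 200 and 500 bp it was 24.7, 0.971 and 0.879. With the 500 bp window the difference of Olfr50 was 23.2. A percentile leaves little room above a high value. On scores less the array's median and divided by its own spread (the MAD), Olfr73 and Olfr1440 stood higher on Stringent, by 4.13 and 17.8 units of it.

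Scores stepped up at the named position in the direction of transcription, at the members as at most named positions. The positions may have been set on these signals, so the step describes them and is not a test. Averaged over 150 bp, the score was higher downstream than upstream at 5 of 5 members on Stringent, against 95.1% of 1022 positions with probes on both sides. On High Coverage 1 it did so at 5 of 5, against 70.5%, and on High Coverage 2 at 5 of 5, against 74.9%. Over this distance the Stringent step was largest at Olfr160, with a mean of 9.49 downstream and -1.003 upstream. Olfr50 followed with 11.7 downstream and 3.52 upstream, and Olfr73 had the smallest step, with 2.11 downstream and -0.267 upstream. At Olfr109 the downstream means were 3.59 on Stringent and, for High Coverage 1 and 2, 12.05 and 12.8, with upstream means of -0.403, 2.59 and 3.08. At Olfr50 on High Coverage 1 both sides were low, at -1.35 downstream and -1.51 upstream, so the step of 0.165 there lay between 2 low means. The order of the Stringent steps depended on the distance averaged. Over 100 bp the step of Olfr50, 9.59, exceeded that of Olfr160, 7.91, and over 300 bp that of Olfr160 was 13.9, with 4.13 at Olfr1440 and 3.52 at Olfr50. The Stringent step of Olfr73 was 2.38 over 150 bp and 1.06 over 300 bp. At Olfr160 the step on High Coverage 1 was 2.97, with 0.797 over 100 bp and 8.24 over 300 bp. On High Coverage 2 it was 0.988, with 0.0701 over 100 bp and 3.56 over 300 bp.

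**Figure D2:**
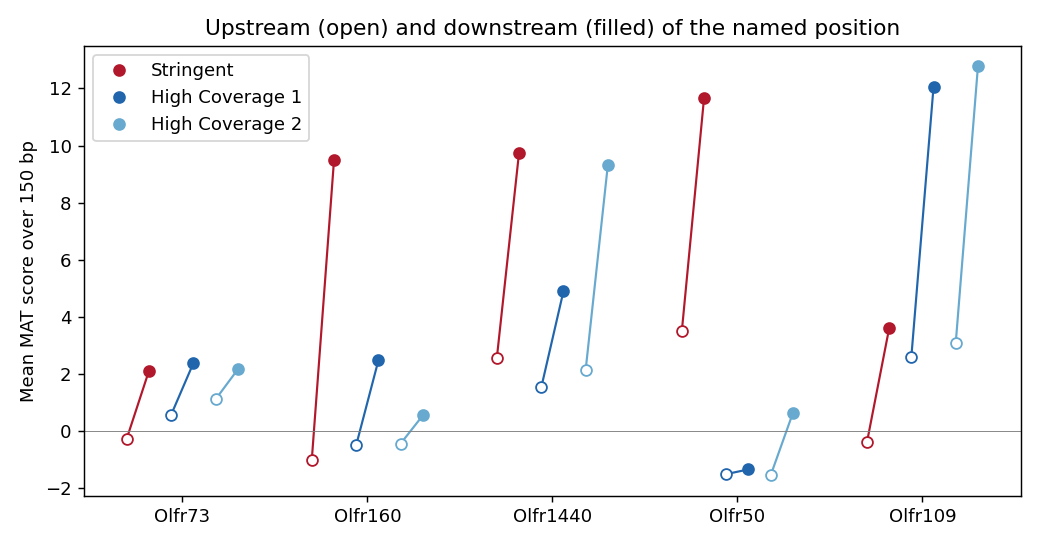
The vertical axis gives the mean MAT score over 150 bp, upstream (open points) and downstream (filled points) of the named position, on each of the 3 arrays. Each line joins the 2 means of 1 array, and every line rises downstream, that of Olfr50 on High Coverage 1 by 0.165.

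Further downstream, Olfr160, Olfr1440, Olfr50 and Olfr109 had another block of signal within 10 kb that was called on all 3 arrays. The share of all positions with such a shared block was not computed, so whether this is usual is not known. The arrays give the place of such signal but do not tie it to a transcript. From 1 kb upstream to 10 kb downstream of the 5 genes together, the authors called 17 regions on Stringent, with 26 and 20 on High Coverage 1 and 2. The window of a single member held 2 to 5 regions on Stringent, 1 to 9 on High Coverage 1 and 3 to 6 on High Coverage 2. Over all positions the median was 3 regions a window on Stringent and 4 on each High Coverage array. A region lay 1 to 10 kb downstream at 4 of 5 members on Stringent, against 88.4% of all positions. It did so at 5 of 5 on High Coverage 1, against 95.5%, and at 5 of 5 on High Coverage 2, against 92.4%. All 3 arrays had such a region at 4 of 5 members and at 83.1% of all positions, and these shares are close. A region whose downstream end lay 100 to 1000 bp upstream of the position was rarer. It was found at 0 members on Stringent, against 1.2% of all positions, at 1 member (Olfr160) on High Coverage 1, against 17.1%, and at 0 on High Coverage 2, against 14.6%.

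When regions of the 3 arrays within 100 bp of each other were joined into blocks, the 5 windows held 22 blocks. Of these, 8 had a region on all 3 arrays, 7 on 2 arrays and 7 on 1 array. The share on all 3 arrays was 36.4%, against 24.7% of 5408 blocks in the windows of all positions, which overlap between neighbouring genes. Blocks on all 3 arrays, those at the promoter included, had a median of 2 a window for the members and 1 over all positions.

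For Olfr160 a pair of separated blocks had a region on every array, and 2 smaller blocks had one on a single array. The first shared block was the one at the promoter. The other began 3840 bp downstream on Stringent and ended at 4549 bp, with a score of 20.4, and on High Coverage 1 it ran from 3825 to 4554 bp with a score of 22.4. On High Coverage 2 it began later, at 4019 bp, with a score of 18.2 up to 4489 bp, and an adjoining region of score 7.26 reached 5022 bp. The highest scores of this distal block stood at the 99.8, 99.9 and 99.8 percentiles, and that of the promoter block was lowest on High Coverage 2. A Stringent region of score 5.17 from 3181 to 3339 bp had no High Coverage region, and there the scores were 0.389 and 1.19. The other small block, from -365 to -241 bp (upstream of the position), had a region on High Coverage 1 only, with a score of 2.70. Scored probes reached only to 7723 bp for this gene.

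For Olfr1440 the second block common to all arrays lay furthest from the promoter. It ran from 6879 to 7392 bp downstream on Stringent, with a score of 17.7. On High Coverage 1 it ran from 6884 to 7233 bp with a score of 11.97, and on High Coverage 2 from 6884 to 7267 bp with a score of 15.7. The 3 arrays placed its start within 5 bp of each other, and its highest score exceeded that at the promoter on each. Between the 2 blocks lay 4 smaller ones. One of them, from 1139 to 1291 bp, had a region on Stringent only, with a score of 3.62, and scores of -0.664 and -0.793 on High Coverage 1 and 2. Blocks from 3571 to 3700 bp and from 4127 to 4321 bp had High Coverage regions only, with scores between 2.60 and 4.01. The highest Stringent scores in them were -0.128 and 2.45, the latter just under the Stringent threshold of 2.52.

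For Olfr50 the block that all 3 arrays shared was not the one at the promoter. It ran from 2564 to 3100 bp downstream on Stringent, with a score of 15.8. On High Coverage 1 it ran from 2653 to 2989 bp with a score of 8.25, and on High Coverage 2 from 2633 to 2994 bp with a score of 12.3. The percentiles were 98.8, 98.9 and 99.2, so both High Coverage arrays, without a region at the promoter of Olfr50, had a high score in this block. An intermediate block differed in place. The Stringent region ran from 1821 to 2150 bp with a score of 14.3, while High Coverage 2 had regions from 1686 to 1901 bp with scores of 3.93 and 3.60. High Coverage 1 had no region there and a highest score of 2.18.

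For Olfr109 the arrays shared the promoter block and a short one ending 2614 bp downstream. The short block began at 2419 bp on Stringent, with a score of 8.04, at 2365 bp on High Coverage 1, with 12.9, and at 2370 bp on High Coverage 2, with 14.3. It ended at the same base on all 3 arrays, next to a stretch without scored probes. Further downstream the Stringent array and the High Coverage arrays differed in their called regions. Stringent alone had a region from 4698 to 5160 bp, with a score of 6.66, where the High Coverage arrays had 0.617 and 0.968. Further on, where the highest Stringent score was 0.986, both High Coverage arrays had a region. It ran from 6447 to 6632 bp on High Coverage 1 with a score of 4.94, and from 6463 to 6587 bp on High Coverage 2 with a score of 3.07. The latter ranked 5916 of 6311 in its list, near the threshold of 2.99.

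Olfr73 had no distal block common to all arrays. Its block on all 3 arrays ended 1188 bp downstream. A second Stringent region followed from 275 to 597 bp downstream, with a score of 12.2, higher than at the position itself. High Coverage 1 had a region from 285 to 622 bp with a score of 5.07, and High Coverage 2 one from 221 to 708 bp with a score of 13.6. Next to it the High Coverage arrays had a region that Stringent lacked, from 897 to 1182 bp on High Coverage 1 with a score of 4.33 and from 768 to 1188 bp on High Coverage 2 with a score of 11.9. Blocks from 7040 to 7437 bp and from 8466 to 8897 bp also had High Coverage regions only. The highest scores in the nearer block were 1.88 on Stringent and 4.85 and 4.76 on High Coverage 1 and 2, and in the farther block 1.29 on Stringent and 5.28 and 5.75 on High Coverage 1 and 2. From 3778 to 6362 bp downstream there was no scored probe, and that stretch was not measured.

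**Figure D3:**
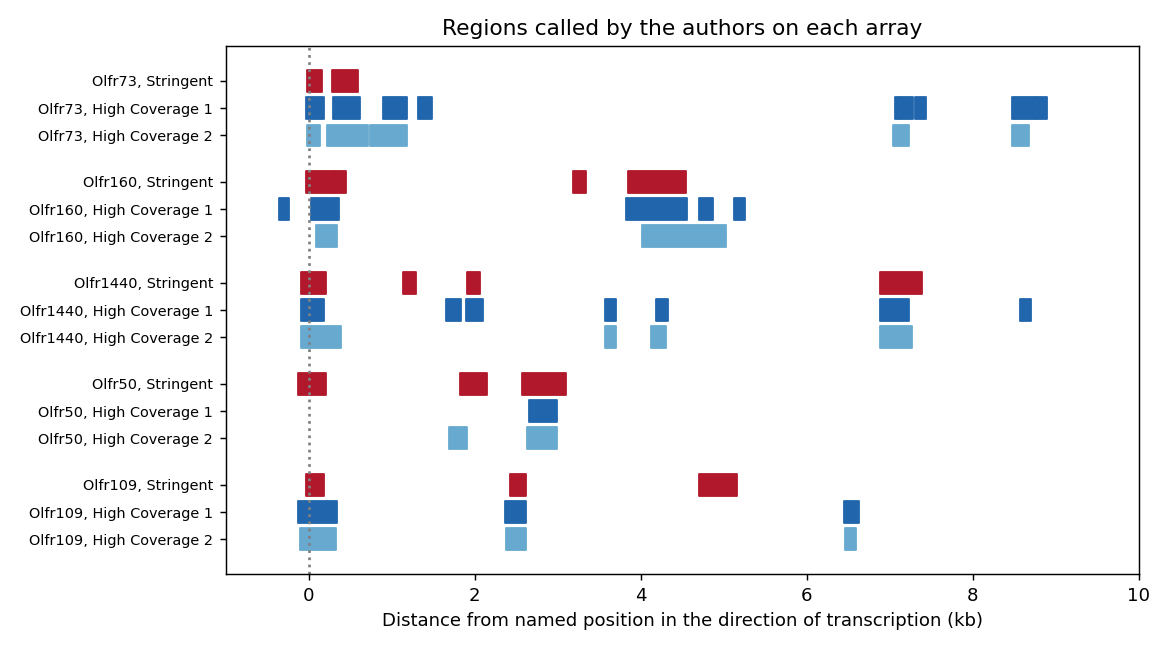
The horizontal axis is the distance from the named position in kb, in the direction of transcription, and each bar is a region called by the authors on the array named at the left. Olfr160, Olfr1440, Olfr50 and Olfr109 each have a distal block on all 3 arrays, beyond 2 kb, and Olfr50 has a promoter bar on Stringent only. How often other positions have such a block was not computed.

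**Figure D4:**
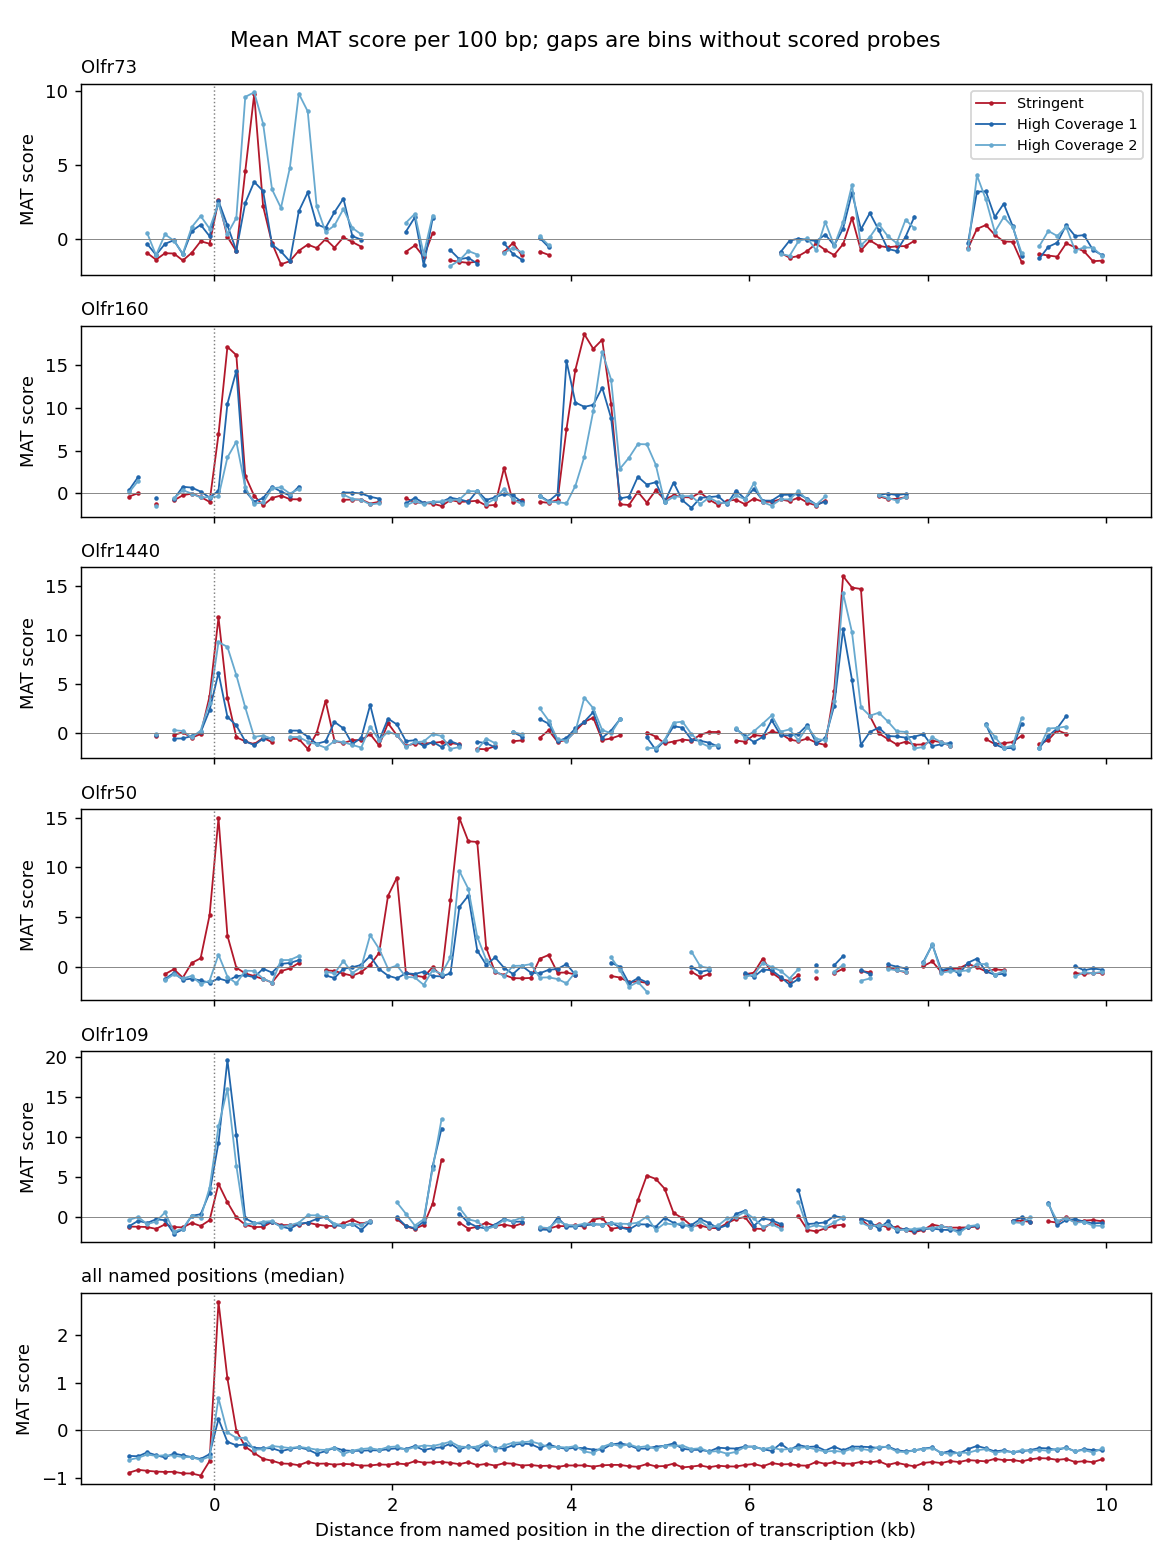
Each panel gives the mean MAT score per 100 bp (vertical axis, scaled to the panel) against the distance from the named position in kb, for the 5 receptors and, at the bottom, as the median of all named positions. The values of the median profile stay below 3, and the missing stretches are bins without scored probes.

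Across the scored probes of each window the arrays were compared by Pearson's r, which describes the profiles only, since neighbouring probes share their averaging window. For Olfr109 the High Coverage arrays had r = 0.958 with each other over 1500 probes, and Stringent had 0.467 with High Coverage 1 and 0.537 with High Coverage 2. For Olfr160 the closest pair was Stringent and High Coverage 1, at 0.895 over 1130 probes, while the High Coverage arrays had 0.643. For Olfr50 the High Coverage arrays had 0.878, for Olfr1440 0.844 and for Olfr73 0.676. Over all scored probes of the arrays the High Coverage pair had 0.740, and Stringent had 0.457 and 0.498.

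The nearest named positions belong to other receptors, and none lay inside the 10 kb downstream of a member. Olfr1161, in the opposite orientation, was the closest downstream neighbour, 12709 bp from Olfr73. The closest upstream neighbour was Olfr348, 6342 bp before Olfr50 on the same strand. It resembled Olfr50 on Stringent, with a score of 16.1, and likewise had a region on that array only. The High Coverage ranks of the 2 genes differed. Olfr348 scored 1.29 and 0.180 on High Coverage 1 and 2, at the 90.3 and 73.3 percentiles, against 36.0 and 92.3 for Olfr50. Olfr108, 16891 bp before Olfr109, scored 5.09 on Stringent, 11.6 on the first and 7.42 on the second High Coverage array, so it too had its lowest score on Stringent. On the other side of Olfr109, Olfr110 had 4.61, -0.362 and 7.23 in the same order. Olfr874, before Olfr160, had no region at its nearer position on any array, and Olfr160 had its next named position downstream only after 17385 kb. Of the 10 nearest positions, 7 had a region on Stringent, and 3 and 6 had one on High Coverage 1 and 2. Over all 1085 positions the shares were 61.7%, 36.4% and 43.6% in the same order.

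Of 11 other class II receptors with a reported ligand, Olfr2, Olfr17, Olfr62, Olfr74 and Olfr1509 had a named position and Olfr15, Olfr16, Olfr124, Olfr151, Olfr235 and Olfr1019 had none. A region was called at 3 of the 5 on Stringent, against 61.7% of all positions. It was called at 2 on High Coverage 1, against 36.4%, and at 3 on High Coverage 2, against 43.6%. The median percentiles of these 5 receptors were 92.8, 91.0 and 93.3. Olfr2, the I7 receptor for octanal, scored 12.2 on Stringent, with 1.39 and 2.34 on High Coverage 1 and 2. Olfr17, the P2 receptor, scored 1.55, 6.19 and 2.47 in that order. Olfr74, which lies on chromosome 2 like Olfr73, had no region on any array, with scores of 2.00, -0.237 and -0.0223, and Olfr1509 had none either.

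The profiles most like those of the members, over the 3 arrays joined in bins of 100 bp, belonged to receptors on another chromosome in 7 of 10 cases. The share of all compared positions that lie on another chromosome was not computed, so this count cannot be read as high or low. For Olfr160 they were Olfr390 on chromosome 11 (r = 0.737) and Olfr871 on chromosome 9 (r = 0.731), over 57 and 60 shared bins. For Olfr50 they were Olfr1378 on chromosome 11 (r = 0.702) and Olfr878 on chromosome 9 (r = 0.686). Olfr1440 was most like Olfr972 on chromosome 9 (r = 0.696) and Olfr3 on chromosome 2 (r = 0.657). Olfr109 was most like Olfr1262 on chromosome 2 (r = 0.689) and Olfr99 on chromosome 17 (r = 0.657), which shared 94 of its 100 bins. Olfr73 was most like Olfr725 on chromosome 14 (r = 0.666) and Olfr1223 on chromosome 2 (r = 0.561). The 2 values given for a member are the highest among 614 or more compared positions, whose median r was between 0.0106 and 0.0319. Positions of class I receptors were left out of the comparison.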

How the data were processed

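The deposited files give a MAT score per probe, computed by the authors for every array separately. Bandwidth was 50, the largest gap 30 and the fewest probes 5, and no control array was used, per the file headers, which also state a natural log scale. Regions were called per array above score thresholds of 2.52 (Stringent), 2.53 (High Coverage 1) and 2.99 (High Coverage 2), per the file headers, so counts of regions are not at a like cutoff. Coordinates are in mm9 (submitters' processing notes). The rule by which the deposited positions were set is not given in the sources.

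Probes at exactly 0 on all 3 arrays (5.42% of 2313448) were taken as unscored. Overlap was 1 bp or more. Distances follow the strand. Regions up to 100 bp apart were joined into blocks. Named genes were the members, their nearest named positions, a list of other class II receptors with ligands and the 2 most alike profiles over at least 60% of a member's bins. Members and lists were chosen with earlier results of these data known. Measuring steps were tested on simulated data. The number of arrays limits the precision. Probe sequences were not used here. Python 3.11.15, numpy 2.4.6, pandas 2.3.3 and matplotlib 3.10.9 were used.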

Additional observations from a re-analysis of the deposited data

How the results depend on the processing

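Windows of 0, 50, 200 and 500 bp, a 50 bp overlap or as many regions on each array as the shortest list left 5 members with a Stringent region, and 3 or 4 on each High Coverage array, the lost member being Olfr73 with the shortened High Coverage 2 list and Olfr160 otherwise. With the 3608 highest regions of each array, the members' windows held 17 and 13 regions on High Coverage 1 and 2, in place of 26 and 20, and up to 5 kb downstream High Coverage 1 held 17. The median percentile with the mean score was 93.7 on Stringent and, for High Coverage 1 and 2, 90.7 and 89.9. Among named positions it was 82.3, 85.4 and 71.8. On the MAD scale 4 members stood higher on Stringent in place of 2, and Olfr73 (4.13) and Olfr1440 (17.8) changed sign. Leaving out either High Coverage array left the count at 2 (2 to 2). Over 100 bp on each side Olfr1440 had too few upstream probes for a step, and the other 4 members rose. Steps averaged over 300 bp were positive at 5 of 5 members on each array. The cause of these changes was not tested. No paired analysis was possible because Stringent has 1 array.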
